A study of Mus musculus with 32 samples.

Results

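The genes described here are 10 imprinted genes of the mouse: H19, Igf2, Igf2r, Grb10, Cdkn1c, Mest, Peg3, Peg10, Snrpn and Sfmbt2. They were found by symbol among 55492 rows of a table of gene levels, and each symbol matched a single row. They were chosen by name with their FPKM in these same libraries known, above all that of H19, Igf2 and Sfmbt2, so the levels and the differences of the 10 genes are given as a description, without p-values. All 10 passed the filter on low values, which asked for at least 1 FPKM in at least 2 libraries. FPKM is the number of sequenced fragments per kilobase of transcript and per M (mega) mapped fragments.

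Polyadenylated RNA was sequenced from 4 kinds of mouse culture at days 0, 2, 4 and 6 of differentiation towards retinal organoids, with 2 libraries in each of 16 groups and 32 libraries in all. The wild type (WT) was the Rx:GFP embryonic stem cell line, named for a green fluorescent reporter of the eye field gene Rax (Rx). The knockout (KO) was a Mettl3 KO, Mettl3 being the gene of the methyltransferase that places N6-methyladenosine (m6A) in RNA. The fusion line was the Mettl3 KO overexpressing wild-type METTL3 joined to a domain labelled GRBD, and it was kept without dexamethasone (Dex, a synthetic glucocorticoid) or with Dex at 10 µM. Day 0 samples are labelled embryonic stem cells (ESCs), and the protocol lists AGN at 0.1 µM in the differentiation medium of every line, with none labelled at day 0. The series' design text calls the fusion protein cytosolic without Dex and nuclear with it. WT and KO cultures had no Dex, so an effect of Dex itself cannot be told apart from an effect of the fusion protein's response to it. The treatment protocol lists Dex from 2 days on, while a pair of day 0 samples carries a Dex label. Groups follow the sample labels. The number of clones behind each line is not given.

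An imprinted gene is transcribed mainly or only from the copy inherited from 1 parent. For many imprinted genes, though not all, this is set by DNA methylation laid down in the egg or the sperm at an imprinting control region. Several such genes can share a control region and respond to it in opposite ways: H19 is read from the maternal chromosome and Igf2, its neighbour, from the paternal one. Many imprinted genes act on the growth of the embryo and the placenta, and their marks are known to drift in cultured stem cells. The table does not separate the parental copies, so only total levels are described. In whole cultures a lower level can come from fewer cells that express a gene or from less RNA per cell, and these cannot be told apart here.

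H19 is a spliced, polyadenylated long non-coding RNA and the precursor of the microRNA miR-675. It lies on chromosome 7 at 142575529 to 142578143, minus strand (GRCm38). Of the genes described, H19, Igf2 and Mest hold a microRNA on their own strand in the RefSeq table for GRCm38.p6. The other genes, Sfmbt2 among them, had no entry in the table as supplied. A missing entry does not show that a gene lacks microRNAs. The mature sequences are shown because they are encoded within genes measured here. They are written 5′ to 3′ with the seed, bases 2 to 8, in capitals.
miR-675-5p (H19): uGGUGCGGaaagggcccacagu
miR-675-3p (H19): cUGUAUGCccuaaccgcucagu
miR-483-5p (Igf2): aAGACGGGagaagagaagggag
miR-483-3p (Igf2): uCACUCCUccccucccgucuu
miR-335-5p (Mest): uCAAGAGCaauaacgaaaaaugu
miR-335-3p (Mest): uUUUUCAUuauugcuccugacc
No seed was shared between them. Mature microRNAs were not measured in these libraries.

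Because the knocked-out enzyme methylates adenosine within short motifs of which GGACT is a common form, GGACT was searched for on the sense strand of the longest annotated transcript of each gene. H19 held 6 in 2286 bases, or 2.63 per kilobase, which is the 95.1st percentile of 16251 transcripts. The median over those transcripts was 1.01 per kilobase, and 86.4% held at least 1. The H19 matches are shown with 8 bases on each side, the motif in capitals, named by the position of its first base in the transcript.
H19 base 129: atgttgaaGGACTgaggggct
H19 base 923: caggtatcGGACTccagaggg
H19 base 1007: cggcccagGGACTggtgcgga
H19 base 1033: cccacagtGGACTtggtacac
H19 base 1301: aagagctcGGACTggagacta
H19 base 1614: gaatccggGGACTtctttaag
The matches at bases 1007 and 1033 border miR-675-5p, which runs from base 1011 to base 1032, so that the last base of the one is the first base of the microRNA and the other begins directly after it. The other genes lay lower, with 1.38 per kilobase in Grb10, 1.35 in Igf2r, 1.05 in Cdkn1c, 1.03 in Peg3, 0.889 in Sfmbt2, 0.60 in Peg10, 0.424 in Igf2 and 0.375 in Mest, and no match in Snrpn. A match is a description of the letters, and m6A was not measured here.

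Depth was estimated at 28.2 to 54.25 M fragments per library. For a 2 kb transcript, 3 fragments then amount to 0.032 to 0.063 FPKM, a limit that covers counting error only. Whether duplicates came from separate cultures is not stated, so p-values measure only the spread between these libraries, which may be technical. The WT day 0 pair differed most, with a median squared difference of 15.1 times counting noise, against 3.45 to 5.75 times in the other groups. Mettl3 itself was read at 33.15 to 36.8 FPKM in WT and 42.88 to 43.83 FPKM in KO at day 0, so its RNA level did not mark the KO, which rests on the labels. In the fusion line at day 0 it was 68.52 to 75.06 FPKM. Of the 6 pluripotency markers, 6 were at 1 FPKM or more at day 0 in each line, and 5 still were at day 6, so this count separates the days little. Their day 0 sums were 1889.81 to 1995.18 FPKM in WT, 2137.78 to 2141.17 in KO, 1998.1 to 2014.31 without Dex and 1914.29 to 1920.45 with Dex. At day 6 they were 268.62 to 268.83, 235.44 to 237.67, 198.98 to 200.29 and 193.81 to 200.78 FPKM. At day 6 the eye field markers summed to 646.68 to 680.93 FPKM in WT, 116.83 to 118.42 in KO, 182.3 to 185.92 without Dex and 416.33 to 416.53 with Dex. Pax6 made up most of the KO sum (111.7 FPKM, against 110.1 in WT), while Rax was 0.30 in KO, 0.91 without Dex, 54.7 with Dex and 118.2 in WT, and Six6 was 0.02, 0.01, 6.40 and 69.7 FPKM.

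**Figure D1:**
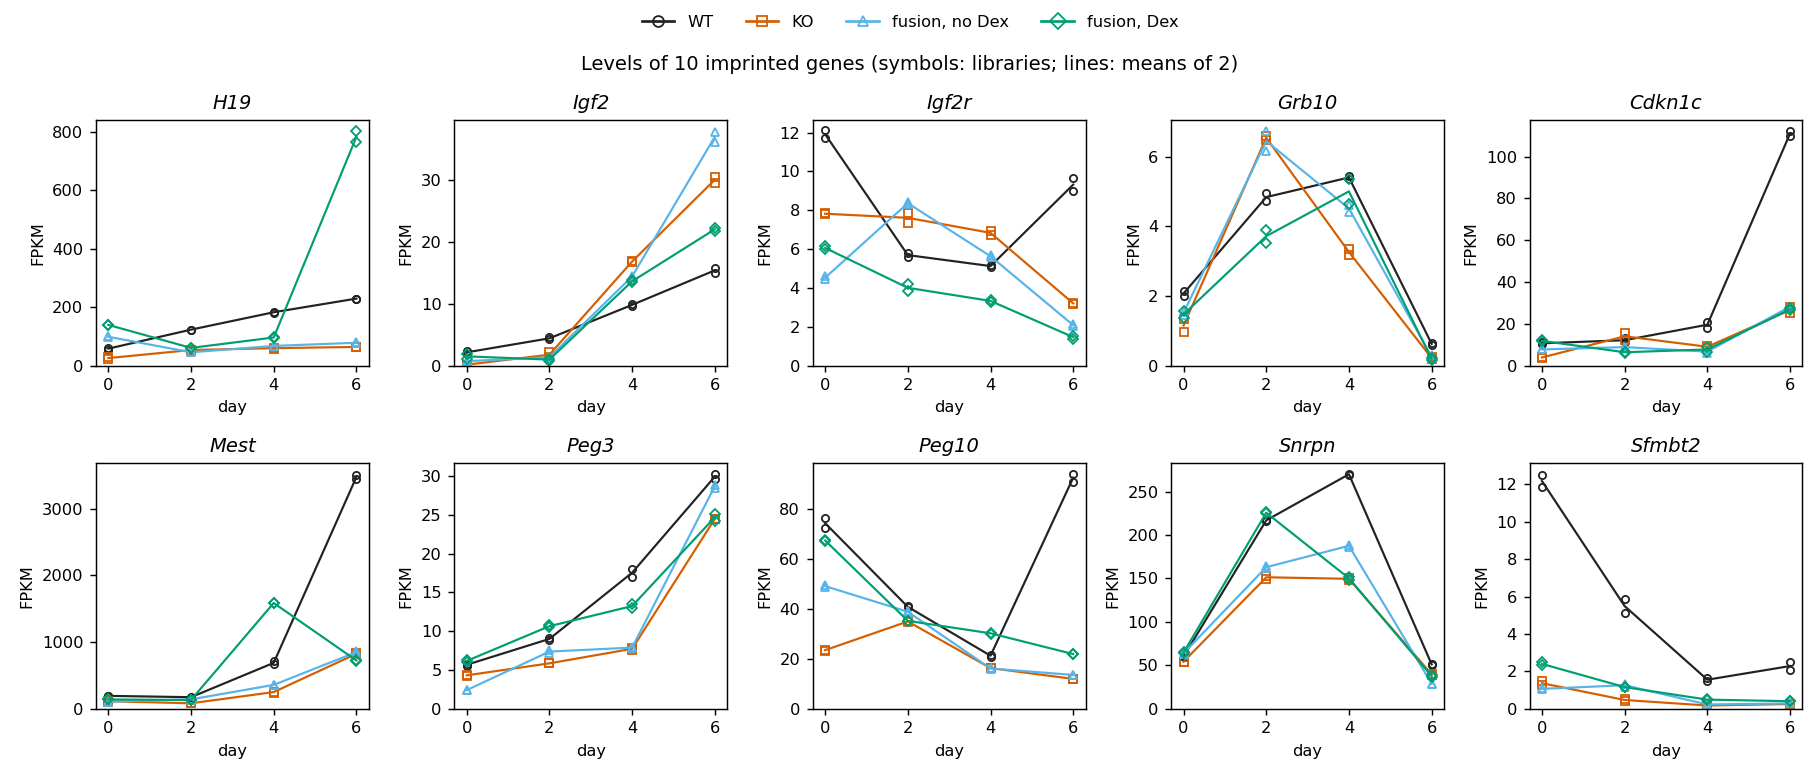
FPKM of the 10 imprinted genes (y axis, linear) against day of differentiation (x axis) in WT, KO and the fusion line without and with Dex; each symbol is a library and each line joins the means of 2. H19 at day 6 with Dex stands at 764.60 to 801.86 FPKM, above the 229.36 to 229.49 of WT, and Sfmbt2 is highest in WT at each day.

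H19 was lower in KO than in WT at every day, and stood far above every other group at day 6 with Dex. The WT libraries held 54.85 and 61.14 FPKM at day 0, 122.84 and 123.33 at day 2, 180.27 and 185.00 at day 4, and 229.36 and 229.49 at day 6. The KO libraries held 30.12 and 21.23, 52.06 and 54.62, 58.48 and 60.75, and 64.24 and 63.78 FPKM at the same days. WT thus gained H19 throughout, KO levelled off from day 2 on, and the libraries of WT and KO did not overlap on any day. Non-overlap was common: it held for 66.7%, 77.8%, 79.1% and 81.5% of all genes tested at days 0, 2, 4 and 6. The log2 difference, KO less WT on the log2(FPKM + 1) scale, went from -1.16 (day 0) through -1.19 and -1.60 to -1.83 (day 6), the last a level 3.58 times lower.

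The fusion line began with more H19 than either. It held 100.64 and 96.77 FPKM at day 0 without Dex, 3.84 times the KO mean, and 139.48 and 139.15 FPKM in the samples labelled Dex. Without Dex it then came down close to KO, with 45.49 and 45.49 FPKM at day 2, 67.40 and 67.32 at day 4 and 79.85 and 76.66 at day 6. With Dex it held 59.74 and 61.33 FPKM at day 2 and 97.60 and 94.79 at day 4, and then 801.86 and 764.60 at day 6. The day 6 mean with Dex was 10.0 times that without Dex (log2 difference 3.31), where the differences at days 0, 2 and 4 were 0.49, 0.40 and 0.51. It was also 3.41 times the WT mean of that day, so the level with Dex passed that of WT and did not stop at it.

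The 3 genes whose levels across the 16 groups were most like those of H19 were Prl7d1 (Pearson r 0.88), Prl2a1 (0.86) and Prl2c3 (0.86), of the prolactin-related family known from the placenta. These correlations are over group means that share libraries and are given with no test. Prl7d1 held 3.91 and 3.95 FPKM at day 6 with Dex, 0.32 and 0.37 without Dex, and 1.08 and 0.62 in WT. Prl2a1 held 1.96 and 2.42 FPKM and Prl2c3 1.52 and 1.56 at day 6 with Dex. Elsewhere both reached 1 FPKM only in WT day 6 replicate 1 (1.34 and 1.4). They thus passed the filter only through the group where H19 was highest, and that group weighs heavily in their correlations. Some members of this family are near-identical copies, and the split of fragments between such copies is uncertain. The summed level of the 6 trophoblast markers at day 6 was 3.98 to 4.34 FPKM with Dex, 0.44 to 0.63 without Dex, 0.37 to 0.53 in KO and 4.03 to 4.29 in WT, and 1 of the 6 reached 1 FPKM with Dex. That marker was Tpbpa, of the spongiotrophoblast, at 2.76 and 2.84 FPKM with Dex against 0.07 and 0.02 without, while Gcm1 was at 0 in both groups and Hand1 was 2.97 and 2.24 FPKM in WT against 0.63 and 0.89 with Dex. At day 0 the same sum was 12.08 to 12.21 FPKM without Dex and 10.16 to 10.7 with Dex, against 5.48 to 5.95 in KO and 4.51 to 5.0 in WT. Hand1 alone gave 10.8 FPKM of it without Dex and 8.78 with Dex, and Tpbpa was at 0 in all lines. The part of such cells in the H19 level was not tested.

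Igf2 encodes insulin-like growth factor 2, a growth factor of the embryo, and lies upstream of H19 on chromosome 7 (142650766 to 142666816, minus strand). Its level was highest at day 6 in every line, and the order of WT and KO turned over on the way. At day 0 it was 2.34 and 1.95 FPKM in WT against 0.17 and 0.13 in KO, a mean 14.3 times lower. At day 2 the values were 4.27 and 4.56 FPKM in WT and 2.15 and 1.38 in KO. At day 4 KO was above WT, with 16.96 and 16.75 against 9.61 and 10.05 FPKM. At day 6 it was 30.55 and 29.62 FPKM in KO against 15.07 and 15.77 in WT, 1.95 times higher. The log2 differences were thus -1.45, -0.98, 0.72 and 0.92 at days 0 to 6, with no overlap on any day.

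The fusion line without Dex held 0.70 and 0.73 FPKM of Igf2 at day 0 and 36.20 and 37.87 at day 6, the highest level of the 16 groups. With Dex it held 22.27 and 21.86 FPKM at day 6, below the group without Dex (log2 difference -0.72) and above WT. At day 6 H19 and Igf2 were therefore ordered differently: H19 from high to low ran Dex, WT, no Dex, KO, and Igf2 ran no Dex, KO, Dex, WT. Over all 16 group means their Pearson r was 0.44, a description of groups that share lines and days. The nearest profiles to Igf2 were those of Epb41 (r 0.98), a membrane skeleton protein, Dgkk (0.97), a diacylglycerol kinase, and Pam (0.97), which amidates peptide hormones.

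The genes tested beside H19 and Igf2 were Cd81, Tssc4 and Ascl2, on chromosome 7 between 142966829 (Ascl2) and 143071093 (Tssc4). They lie nearer to Kcnq1ot1 (from 143203458), a non-coding RNA of the Cdkn1c domain, than to H19 or Igf2. Ins2, which lies next to Igf2, reached at most 0.15 FPKM and did not pass the filter. Cd81, which encodes a tetraspanin, fell in KO at day 0 (log2 difference -0.75 ± 0.03 SE, limma adjusted p = 8.07e-13) and was 0.04 ± 0.03 at day 6 (adjusted p = 0.223). Tssc4 rose in KO at day 0 (0.73 ± 0.04, adjusted p = 1.68e-11) and at day 6 (0.72 ± 0.04, adjusted p = 1.78e-12). With Dex at day 6, Cd81 was 0.31 ± 0.03 above no Dex (adjusted p = 1.38e-07) and Tssc4 0.06 ± 0.04 (adjusted p = 0.202). Ascl2, a trophoblast transcription factor, was higher with Dex by 0.39 ± 0.15 (adjusted p = 0.0435), a call lost under 6 of its alternatives, the highest adjusted p being 0.378 without Dex day 6 replicate 1. With Dex at day 6 each of these differences was smaller than that of H19.

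**Figure D2:**
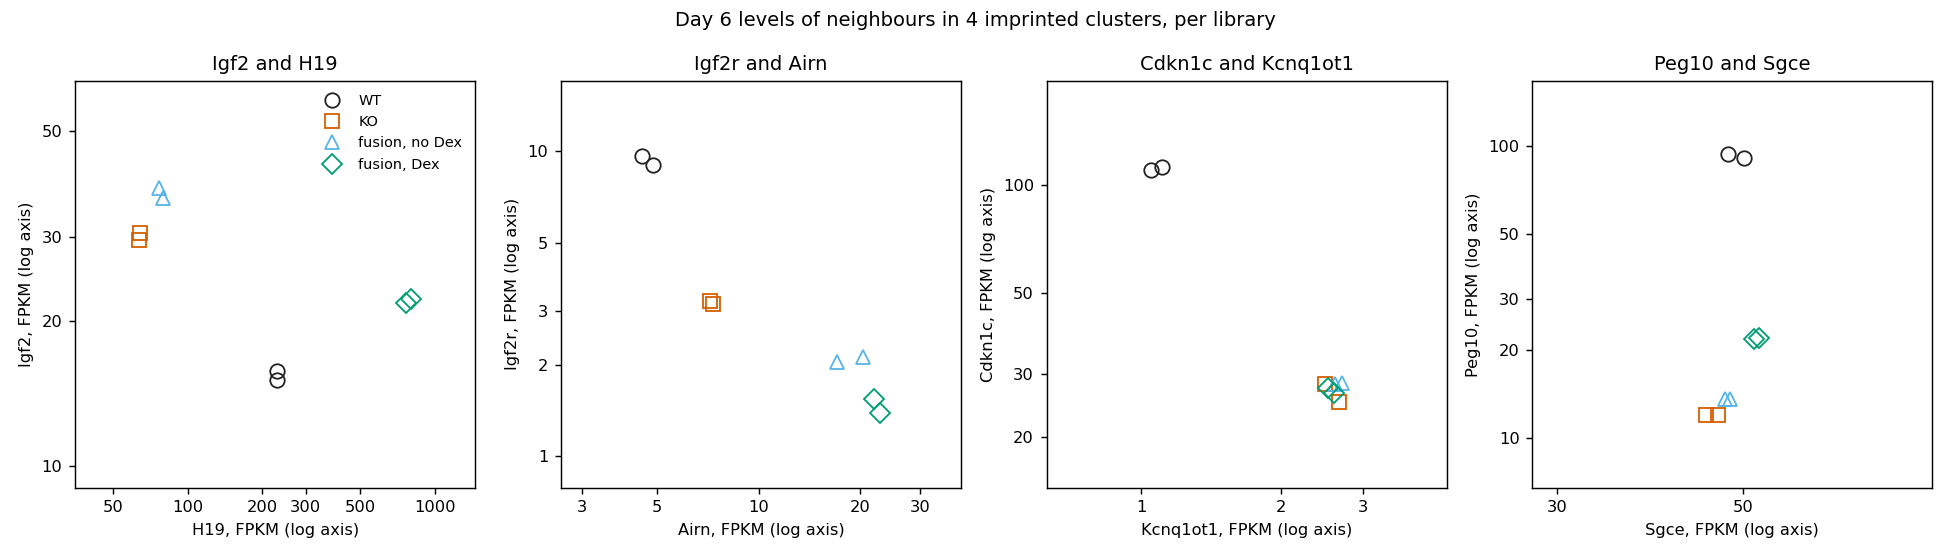
Day 6 levels of 4 pairs of neighbours, per library, in FPKM on log axes: Igf2 against H19, Igf2r against Airn, Cdkn1c against Kcnq1ot1 and Peg10 against Sgce. Igf2r is lowest where Airn is highest, whereas Peg10 spans 11.99 to 94.44 FPKM at nearly even Sgce.

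Igf2r encodes the receptor that takes up IGF2 for breakdown, and it is read from the maternal chromosome 17 (12682406 to 12769664, minus strand). WT libraries held 12.11 and 11.72 FPKM at day 0, 5.78 and 5.60 at day 2, 5.18 and 5.07 at day 4, and 8.99 and 9.65 at day 6. KO libraries held 7.80 and 7.84, 7.88 and 7.34, 6.95 and 6.72, and 3.17 and 3.24 FPKM. KO was thus below WT at days 0 and 6 (log2 differences -0.55 and -1.29) and above it at days 2 and 4 (0.36 and 0.35). The lowest day 6 levels were those of the fusion line, 2.12 and 2.04 FPKM without Dex and 1.39 and 1.54 with Dex, the latter 6.36 times below WT.

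Airn, the non-coding RNA read against Igf2r from the paternal copy, followed the opposite order at day 6. It was 4.86 and 4.50 FPKM in WT, 7.31 and 7.18 in KO, 20.34 and 17.03 without Dex and 22.91 and 21.94 with Dex. Airn was higher in KO than in WT by 0.54 ± 0.18 (adjusted p = 0.0128), a call lost with a pseudocount of 0.1 (adjusted p = 0.256) and without WT day 6 replicate 2 (0.069) or KO day 6 replicate 1 (0.0529), over a range of 0.00423 to 0.256. It rose by 1.25 ± 0.18 from KO to no Dex (adjusted p = 8.6e-06), and the further 0.26 ± 0.18 with Dex did not pass the test (adjusted p = 0.277). Airn overlaps Igf2r on the other strand, and the strand used in counting is not stated, so fragments of the overlap cannot be assigned with certainty. The same holds for Kcnq1ot1, which lies against Kcnq1, and for Copg2, which lies against Mest.

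Grb10 encodes an adaptor that binds and restrains the insulin and IGF1 receptors (chromosome 11, 11930508 to 12038683, minus strand). It was a transient gene in all lines, with its highest mean in KO at day 2. WT held 2.13 and 2.01 FPKM at day 0, 4.95 and 4.72 at day 2, 5.36 and 5.44 at day 4, and 0.66 and 0.59 at day 6. KO held 0.96 and 1.34, 6.60 and 6.48, 3.35 and 3.17, and 0.24 and 0.19 FPKM. At day 6 every KO and fusion library lay between 0.15 and 0.29 FPKM, below both WT libraries, and the libraries without and with Dex overlapped. Among the IGF pathway genes (12 genes, all tested), 9 were called in KO against WT at day 6, 3 higher and 6 lower, where 65.1% of all genes tested were called. Igfbp5, a secreted binding protein of IGFs, fell from 277.8 ± 4.09 to 75.0 ± 1.13 FPKM (SD, n = 2, limma adjusted p = 3.36e-18). Igf1 fell from 1.49 ± 0.57 to 0.06 ± 0.04 FPKM (limma adjusted p = 2.22e-07). Igf2bp2, an RNA-binding protein that binds Igf2 mRNA, fell from 123.1 ± 1.91 to 59.0 ± 0.057 FPKM (limma adjusted p = 6.94e-14). With Dex against no Dex at day 6, 8 of 12 were called, 4 in each direction, where 42.7% of all genes were called.

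Cdkn1c encodes p57, an inhibitor of cyclin-dependent kinases that restrains proliferation, and it is read from the maternal chromosome 7 (143458339 to 143461050, minus strand). WT held 10.11 and 11.22 FPKM at day 0, 11.12 and 13.17 at day 2, 18.19 and 20.94 at day 4, and 112.13 and 109.96 at day 6. KO held 3.93 and 3.82, 12.45 and 15.60, 9.48 and 8.54, and 25.03 and 28.12 FPKM. The libraries of the lines overlapped at day 2, and the means stood 4.18 times apart at day 6 (log2 difference -2.02). The fusion line held 28.23 and 28.19 FPKM without Dex and 26.54 and 27.38 with Dex at day 6. All 4 of those libraries lay close to the KO pair and far below WT, and the difference between Dex and no Dex was -0.06.

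Kcnq1ot1, the paternal non-coding RNA of the Cdkn1c domain, was higher in KO than in WT at day 6, with 2.58 ± 0.127 against 1.08 ± 0.042 FPKM (SD, n = 2, log2 difference 0.78 ± 0.04 SE, limma adjusted p = 3.52e-12). It did not differ past the threshold between no Dex and KO (0.03, adjusted p = 0.551) or between Dex and no Dex (-0.04, adjusted p = 0.496). Phlda2, a maternal gene of that domain that restrains placental growth, fell in KO at day 6 (-1.14 ± 0.10, adjusted p = 4.22e-09) and rose with Dex (0.77 ± 0.10, adjusted p = 3.46e-06), to 2.69 ± 0.042 from 1.18 ± 0.177 FPKM. Nap1l4 fell slightly in KO (-0.23, adjusted p = 1.06e-06) and Osbpl5 rose (0.65, adjusted p = 0.000864).

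Mest, a paternally expressed gene of mesodermal tissues with an α/β hydrolase fold, reached the highest level of the 10 genes (chromosome 6, 30723547 to 30748465, plus strand). WT held 188.52 and 199.12 FPKM at day 0, 183.31 and 164.20 at day 2, 666.49 and 710.09 at day 4, and 3438.83 and 3509.45 at day 6. KO held 105.00 and 121.00, 81.16 and 83.59, 243.51 and 257.58, and 833.14 and 816.71 FPKM. KO was lower on each day, with log2 differences of -0.78, -1.07, -1.45 and -2.07, so the gap widened as Mest climbed. With Dex the peak came at day 4: 1589.62 and 1582.01 FPKM against 359.69 and 357.04 without Dex, 4.43 times higher, and against the WT values above 2.30 times higher. At day 6 the level with Dex was down to 726.41 and 722.03 FPKM, below the 834.48 and 863.83 without Dex. Copg2, the neighbour read on the other strand, fell in KO at day 6 (-0.40, adjusted p = 0.000613).

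Peg10, a paternally expressed gene derived from a retrotransposon and needed for the placenta, lies further along chromosome 6 (4747306 to 4760517, plus strand). WT held 76.62 and 72.37 FPKM at day 0, 40.76 and 41.07 at day 2, 20.91 and 21.69 at day 4, and 91.11 and 94.44 at day 6. KO held 23.29 and 23.77, 34.76 and 35.35, 16.37 and 16.29, and 11.99 and 11.99 FPKM. WT passed its day 0 level again after a dip, whereas KO rose at day 2 and then fell below its day 0 level. The day 6 means were 7.74 times apart (log2 difference -2.85). The fusion line held 13.62 and 13.57 FPKM without Dex and 21.81 and 22.11 with Dex at day 6, which is 1.61 times higher but 4.23 times below WT.

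Sgce, the paternally expressed neighbour that starts beside Peg10 and is read the other way, did not share this difference. It was 49.1 FPKM in WT and 45.9 in KO at day 6 (log2 difference -0.09 ± 0.07, limma adjusted p = 0.279), and 0.11 ± 0.07 higher with Dex than without (adjusted p = 0.234). At day 0 it was lower in KO (log2 difference -0.56 ± 0.07, adjusted p = 3.45e-06), a call lost when the fit held those 2 groups alone (0.0687), over a range of 2.31e-07 to 0.0687. Pon3, a lactonase gene of the same domain, fell in KO at day 6 (-0.45, adjusted p = 0.00462), a call lost without KO day 6 replicate 1 (0.0534, the top of a range from 0.00169). Calcr, Pon2 and Ppp1r9a were not called there.

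Peg3 encodes a zinc finger protein (chromosome 7, 6703892 to 6730431, minus strand). WT held 5.80 and 5.54 FPKM at day 0, 8.86 and 9.14 at day 2, 18.03 and 17.03 at day 4, and 30.24 and 29.57 at day 6. KO held 4.25 and 4.37, 5.87 and 5.84, 7.57 and 7.88, and 24.45 and 24.48 FPKM. KO trailed most at day 4, 2.27 times below WT, and had nearly caught up by day 6 (1.22 times). With Dex the level at day 4 was 13.55 and 12.92 FPKM, 1.68 times that without Dex (7.87 and 7.90 FPKM), and at day 6 it was 25.13 and 24.21 against 28.88 and 28.47. Its neighbours moved apart: Usp29, which shares the control region of Peg3, rose in KO at day 6 (0.41, adjusted p = 9.58e-05) and Zfp264 fell (-0.48, adjusted p = 3.55e-05).

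Snrpn encodes a core protein of the splicing machinery and belongs to the paternally expressed domain of chromosome 7 (59982495 to 60140219, minus strand). It peaked at day 2 or day 4 in all lines. WT held 60.81 and 59.50 FPKM at day 0, 217.51 and 216.17 at day 2, 269.29 and 270.47 at day 4, and 51.75 and 50.62 at day 6. KO held 54.18 and 54.24, 149.63 and 153.01, 150.53 and 148.56, and 39.02 and 40.33 FPKM, lower on each day and by the most at day 4 (log2 difference -0.85). At day 2 the level with Dex, 225.29 and 225.91 FPKM, was above that without Dex, 163.76 and 162.12, and above WT. At day 4 it was 152.21 and 148.12 FPKM with Dex against 188.75 and 186.33 without. Other genes of this domain went the other way in KO at day 6: Ndn rose from 36.8 ± 1.39 to 70.3 ± 0.686 FPKM (SD, n = 2, limma adjusted p = 4.93e-12), Magel2 by 0.77 (adjusted p = 8.41e-12) and Mkrn3 by 0.60 (adjusted p = 5.08e-07). In the fusion line without Dex at day 6, Ndn and Magel2 fell against KO, by 0.48 and 0.91 on the log2 scale (adjusted p = 1.58e-07 and 3.22e-12). Atp10a, which lies further out, fell in KO (-0.49, adjusted p = 1.95e-06). Ube3a rose in KO (0.32, adjusted p = 0.00567), a call lost without WT day 6 replicate 2 (0.0951), without KO day 6 replicate 1 (0.0631) and in a fit of those groups alone (0.052), over a range of 0.00294 to 0.0951. Peg12 fell in KO (-0.24, adjusted p = 0.0162), a call lost with a pseudocount of 0.1 (0.151) and without WT day 6 replicate 2 (0.0803) or KO day 6 replicate 2 (0.0701), over a range of 0.00467 to 0.151.

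Sfmbt2, a Polycomb group gene that is imprinted chiefly in extraembryonic tissue, is read from the paternal chromosome 2 (10370510 to 10595253, plus strand). WT held 12.51 and 11.84 FPKM at day 0, 5.86 and 5.12 at day 2, 1.65 and 1.46 at day 4, and 2.06 and 2.51 at day 6. KO held 1.27 and 1.47, 0.50 and 0.44, 0.14 and 0.21, and 0.27 and 0.24 FPKM. The level came down from day 0 to day 4 in both lines and was slightly higher again at day 6. The ratio of WT to KO was 8.89, 11.7, 8.89 and 8.96 over the 4 days. On the log2(FPKM + 1) scale the differences shrank from -2.48 to -1.39, since that scale compresses low values. The fusion line without Dex held 1.04 and 1.09, 1.33 and 1.19, 0.24 and 0.22, and 0.29 and 0.29 FPKM, which was 2.68 times the KO mean at day 2 and within 1.31 times of it on the other days. With Dex it held 2.32 and 2.48, 1.14 and 1.18, 0.47 and 0.51, and 0.40 and 0.41 FPKM, below WT on each day by a factor of 3.17 to 5.64.

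The profiles nearest to Sfmbt2 over the 16 groups were those of Smc1b (r 0.94), a meiotic cohesin subunit, and of Xlr5a (0.92) and Xlr5b (0.92), X-linked lymphocyte-regulated genes that are near-identical copies of each other. Xlr5a held 4.20 and 5.72 FPKM in WT at day 0 and 0.73 and 0.60 in KO. At day 0 the summed level of the 8 extraembryonic endoderm markers was 20.46 to 21.66 FPKM in WT, with 5 of 8 at 1 FPKM or more, against 4.09 to 4.34 in KO, 6.58 to 6.95 without Dex and 7.25 to 7.48 with Dex, with Ttr at 0 in all lines. At day 6 it was 73.22 to 73.67 FPKM in WT against 11.58 to 11.92 in KO, 9.31 to 9.58 without Dex and 11.63 to 12.84 with Dex, with Afp at 0 in the latter 3. Dab2 alone made up 11.1 of the KO sum at day 6, where it was the only marker of 8 at 1 FPKM or more. The sum was also higher in WT at day 2 (59.68 to 60.63 against 5.98 to 6.06 FPKM in KO) and at day 4 (45.81 to 47.75 against 9.3 to 9.56). Sfmbt2, Mest, H19, Peg3, Snrpn and Peg10 were each higher in WT than in KO on every day. Within WT the sum was higher at day 6 than at day 0, whereas mean Sfmbt2 fell from 12.2 to 2.3 FPKM. Peg10 differed by only -0.22 and -0.36 at days 2 and 4, and the Cdkn1c libraries overlapped at day 2. The neural markers at day 6 summed to 301.85 to 311.0 FPKM in WT and 704.42 to 708.5 in KO, which was carried by Tubb3 (29.2 against 266.2) and Fabp7 (13.6 against 189.1), while Sox3 was lower in KO (175.3 against 145.0). The part of such cells in the differences of Sfmbt2, Mest, Peg10, Cdkn1c and the other genes described was not tested.

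**Figure D3:**
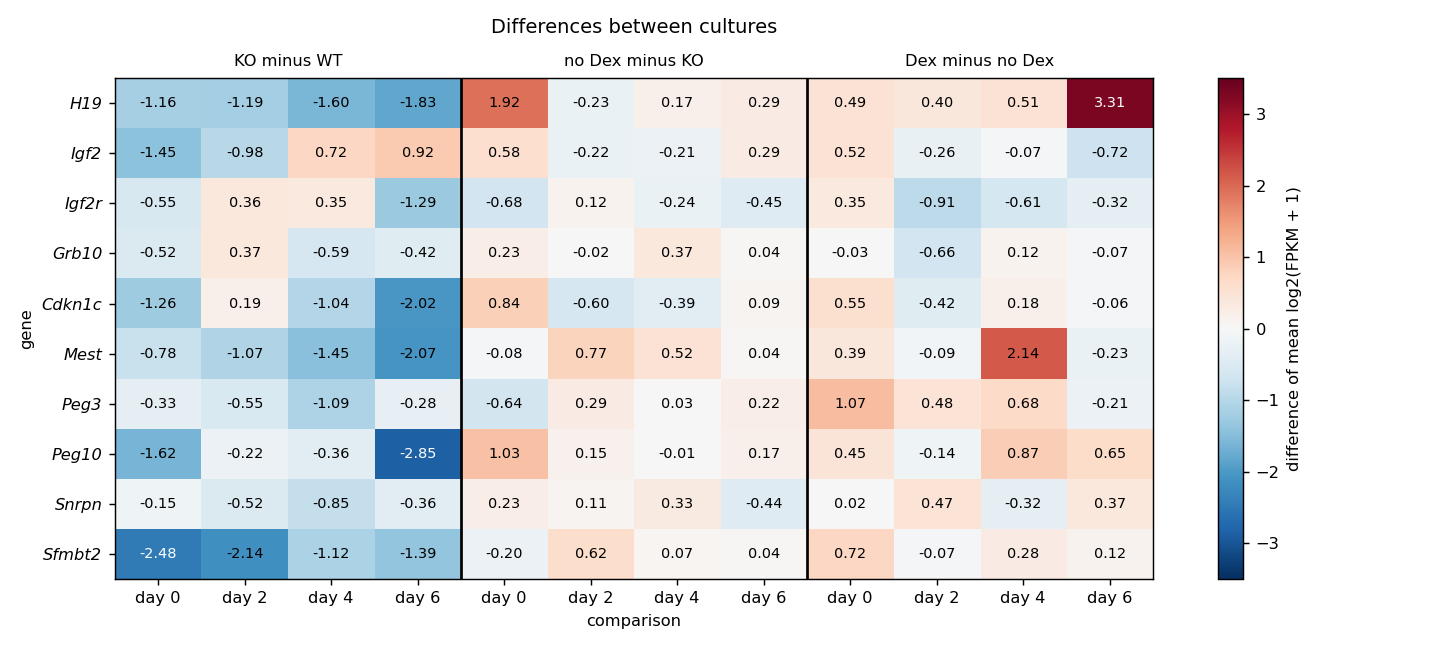
Differences of mean log2(FPKM + 1) for the 10 genes (rows) at days 0, 2, 4 and 6 in KO minus WT, no Dex minus KO and Dex minus no Dex (columns); red is higher and blue lower in the group named first. Most cells of KO minus WT are blue, and the strongest single cell is H19 with Dex at day 6 (3.31).

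Read together, the 10 genes were mostly lower in KO. All 10 were called lower at day 0, 7 at day 2 with 2 higher, 8 at day 4 with 2 higher, and 9 at day 6 with Igf2 higher, where 48.2%, 58.9%, 60.5% and 65.1% of all 16276 genes tested were called. Lower calls made up 29.8%, 21.3%, 24.0% and 34.2% of all genes at those days, and higher calls 18.4%, 37.5%, 36.5% and 30.9%. The median log2 difference of the 10 was -0.97, -0.53, -0.94 and -1.34 at those days, beside -0.041, 0.088, 0.065 and -0.031 for all genes. Between no Dex and KO, 9, 7, 5 and 5 of the 10 were called at days 0, 2, 4 and 6, with 49.1%, 37.0%, 26.7% and 49.0% of all genes. Between Dex and no Dex, 8 were called at day 0, all of them higher (after rescaling Snrpn was called lower, at -0.065), and 7 on each later day, with 43.4%, 44.3%, 40.2% and 42.7% of all genes and 27.3% called higher at day 0. From day 0 to day 6 all 10 were called in each line, where 78.1% (WT), 80.4% (KO), 81.9% (no Dex) and 80.4% (Dex) of all genes were. The genes were chosen with these contrasts in view, and the counts say nothing more about imprinted genes as a class.

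Across the 16 group means the strongest likeness among the 10 was between Grb10 and Snrpn (Pearson r 0.93), both highest at days 2 and 4. Peg3 and Mest followed at 0.85, Igf2 and Peg3 at 0.82 and Igf2 and Mest at 0.81, all of them low at day 0. Peg3 and Cdkn1c stood at 0.77, and both Cdkn1c with Mest and Sfmbt2 with Peg10 at 0.72. The points share lines and days, and no test was made. When the 16 groups were ordered by level, neighbouring groups overlapped in 7 of 15 steps for Cdkn1c, 6 for Grb10, 5 for Sfmbt2, 3 each for H19, Igf2 and Snrpn, and 2 for each of the others.

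A wider list of 60 other imprinted genes, 59 of which had a row and 47 of which passed the filter, did not show a one-sided pattern in KO. Of the 47, 26 were called at day 0 (11 higher, 15 lower), 33 at day 2 (22 and 11), 29 at day 4 (19 and 10) and 34 at day 6 (14 and 20). These are 55.3%, 70.2%, 61.7% and 72.3% of the list, beside 48.2%, 58.9%, 60.5% and 65.1% of all genes, and the day 0 count was 12 in a fit of the compared groups alone. The median log2 difference was -0.112, 0.145, 0.131 and -0.094 at those days, beside the all-gene medians given above. After rescaling the libraries by median-of-ratios factors the splits were 20 and 16 at day 2 and 12 and 15 at day 4, so the surplus of higher calls at day 4 turned over. Between no Dex and KO, 29 (14 higher, 15 lower), 21 (10 and 11), 17 (12 and 5) and 24 (15 and 9) were called, or 61.7%, 44.7%, 36.2% and 51.1% beside 49.1%, 37.0%, 26.7% and 49.0% of all genes. In the fit of the compared groups alone the counts at days 0 and 4 were 17 and 11. Rescaling gave 18 and 10 at day 0 and 13 and 9 at day 2. Between Dex and no Dex, 28 (20 and 8), 28 (9 and 19), 27 (14 and 13) and 19 (9 and 10) were called, or 59.6%, 59.6%, 57.4% and 40.4% beside 43.4%, 44.3%, 40.2% and 42.7% of all genes. The compared groups alone gave 17 at day 2, and rescaling gave 14 and 9 at day 0 and 11 and 12 at day 2. The difference between KO and WT at day 6 departed from that at day 0 in 32 of the 47 (limma interaction term), beside 56.9% of all genes tested, and that between Dex and no Dex in 27, beside 48.7%. The day 6 count of 19 fell to 11 without replicate 2 of the day 6 group lacking Dex.

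**Figure D4:**
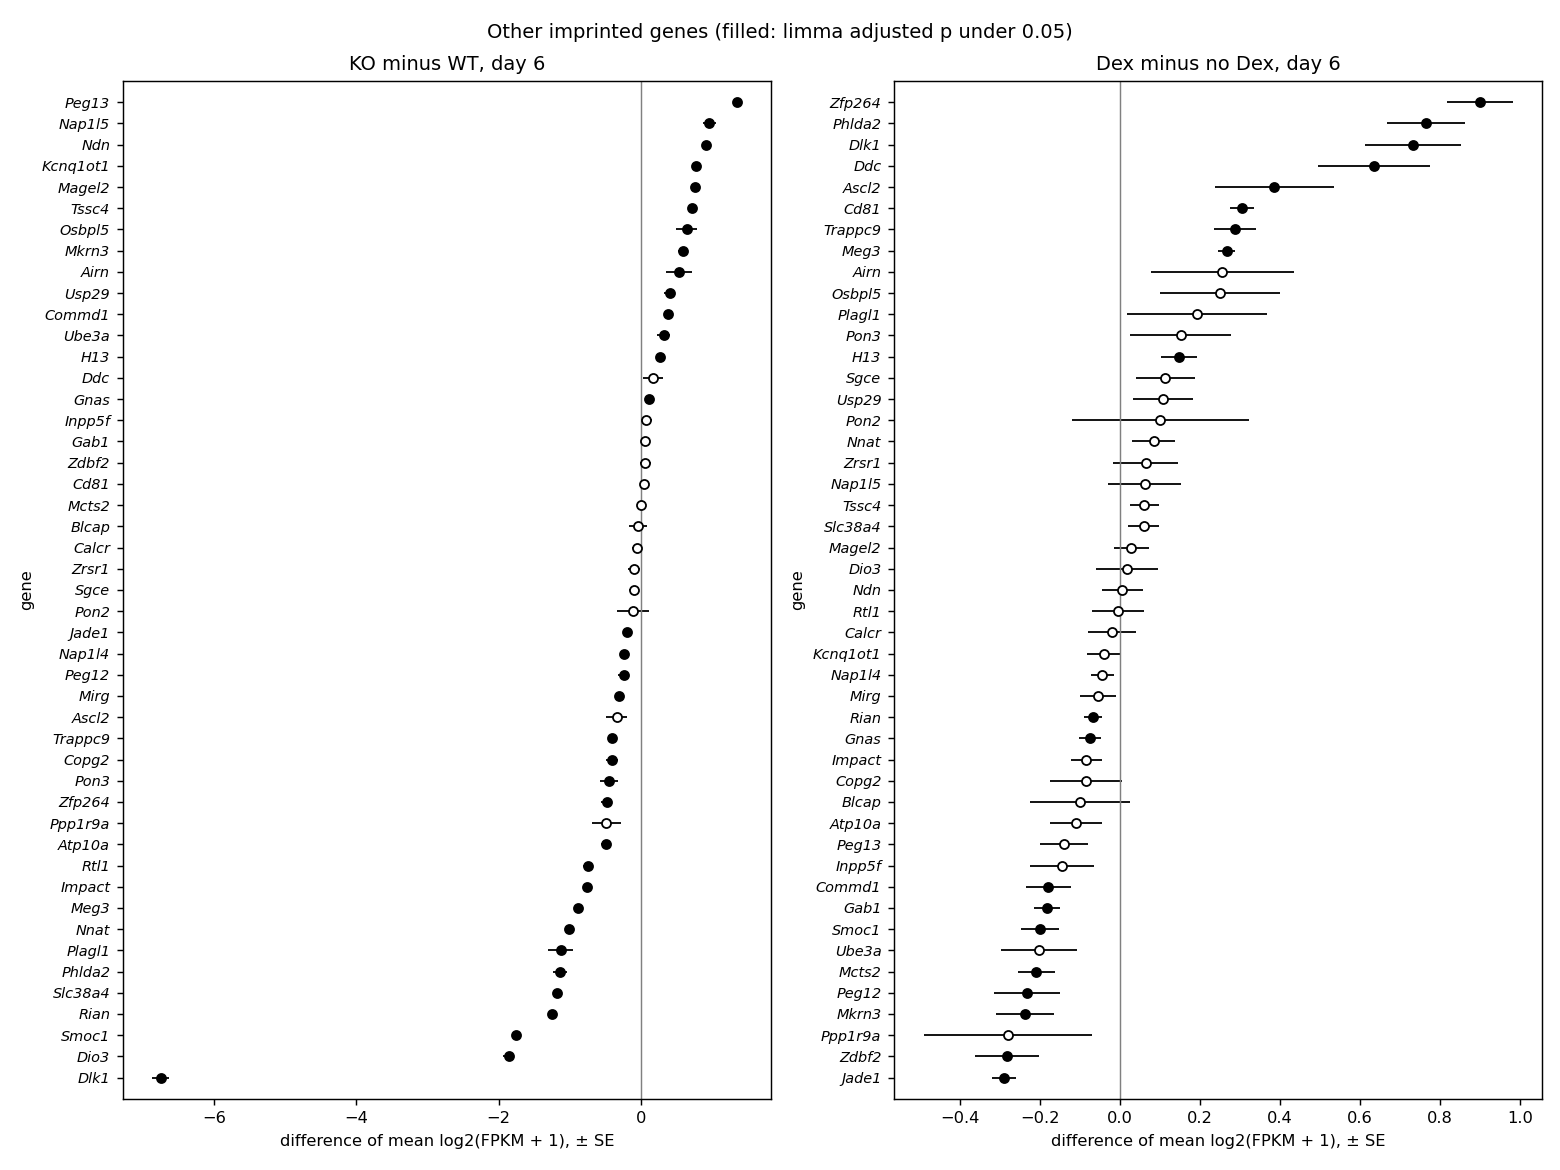
Differences of mean log2(FPKM + 1) with standard errors (x axis) for 47 other imprinted genes (y axis), KO minus WT and Dex minus no Dex at day 6; filled symbols passed a limma adjusted p of 0.05. Dlk1 lies at -6.75 in KO minus WT, while no gene passes 1 in Dex minus no Dex. The scale compresses changes at low FPKM.

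The widest change in the list was that of Dlk1, a paternally expressed Notch-like ligand. It was 294.53 and 283.95 FPKM in WT at day 6 and 1.77 and 1.62 in KO (log2 difference -6.75 ± 0.12 SE, limma adjusted p = 1.91e-19). Through day 4 Dlk1 had stayed between 1.94 and 3.62 FPKM in WT, so the WT level belonged to day 6 alone. With Dex at day 6 it was 3.59 and 3.36 FPKM against 1.75 and 1.63 without (0.73 ± 0.12, adjusted p = 5.7e-05). At day 0 Dlk1 was slightly higher in KO (0.47, adjusted p = 0.003), a call lost in a fit of those groups alone (0.0788, the top of a range from 0.00209).

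Others of the largest falls in KO at day 6 were Dio3, a thyroid hormone deiodinase of the Dlk1 domain (-1.86, adjusted p = 7.44e-14), Smoc1, a secreted matrix protein (-1.75, adjusted p = 1.36e-16), and Rian, a maternal non-coding RNA of the Dlk1 domain, from 363.9 ± 3.60 to 152.1 ± 1.90 FPKM (limma adjusted p = 3.07e-19). The largest rises were Peg13, a non-coding RNA, from 1.72 ± 0.014 to 6.00 ± 0.226 FPKM (SD, n = 2, limma adjusted p = 1.84e-13), Nap1l5 (0.97, adjusted p = 1.47e-08), and Ndn and Kcnq1ot1 as above. Peg13 and Ndn had also risen at day 0 (0.83 and 0.55, adjusted p = 1.81e-09 and 4.25e-08). Falls at day 0 were led by Ppp1r9a (-0.81, adjusted p = 0.0036; 0.00242 to 0.0568 over the alternatives, the highest without WT day 0 replicate 1), Impact (-0.78, adjusted p = 1.18e-11), Cd81 and Nnat (-0.70, adjusted p = 4.53e-09).

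Dex at day 6 left the rest of the list within a narrow band on the log2(FPKM + 1) scale, which understates changes of low genes. The largest rises were all of genes at low levels. Zfp264 rose from 0.755 ± 0.049 to 2.29 ± 0.332 FPKM (SD, n = 2, limma adjusted p = 3.84e-08), followed by Phlda2 (means 1.18 to 2.69 FPKM) and Dlk1 (1.69 to 3.48 FPKM) as above. Ddc, an aromatic amino acid decarboxylase, was next, from 0.85 to 1.89 FPKM (log2 difference 0.64, limma adjusted p = 0.00109). Over the alternatives its adjusted p was 0.000216 to 0.12, the highest in a fit of the compared groups alone. The largest fall was that of Jade1 (-0.29, adjusted p = 2.81e-07). Zdbf2 (-0.28, adjusted p = 0.00772), Mkrn3 (-0.24, adjusted p = 0.0118) and Peg12 (-0.23, adjusted p = 0.0294) fell as well, and each of these calls was lost under an alternative, with adjusted p up to 0.178, 0.101 and 0.21. Leaving out replicate 2 of the day 6 group lacking Dex ended these 3 calls.

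Factors that set or keep imprints were mostly lower in KO. Of 17, 16 were tested, and 13 were called at day 0 (2 higher, 11 lower), 13 at day 2 (2 and 11), 13 at day 4 (4 and 9) and 12 at day 6 (2 and 10). Of all genes 48.2%, 58.9%, 60.5% and 65.1% were called at those days, and 29.8%, 21.3%, 24.0% and 34.2% were called lower. Dnmt3l, the partner of the de novo DNA methyltransferases, was 221.8 ± 0.445 FPKM in WT and 88.7 ± 0.905 in KO at day 0 (SD, n = 2, limma adjusted p = 3.79e-12), and 33.3 ± 2.00 and 2.77 ± 0.255 at day 6 (adjusted p = 4.21e-19). Hells, a chromatin remodeller needed for DNA methylation, fell at day 6 from 45.1 ± 0.354 to 21.6 ± 0.537 FPKM (limma adjusted p = 4e-11). Dppa3, which shields imprints in the early embryo, rose at day 0 from 5.65 ± 0.339 to 17.3 ± 1.25 FPKM (limma adjusted p = 2e-09). Between no Dex and KO, 14 (4 higher, 10 lower; 6 and 8 after rescaling), 12 (all higher), 8 (3 and 5; 6 and 2 after rescaling) and 12 (9 and 3) were called, beside 49.1%, 37.0%, 26.7% and 49.0% of all genes. With Dex against no Dex, 13 were called at day 0 (12 higher and 1 lower, or 11 and 2 after rescaling), where 27.3% of all genes were called higher. At day 2, 7 were called (1 higher and 6 lower, or 5 and 5 after rescaling). There were 12 at day 4 (8 and 4) and 12 at day 6 (3 and 9). Of all genes 43.4%, 44.3%, 40.2% and 42.7% were called at days 0, 2, 4 and 6.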

How the data were processed

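The deposited table gives FPKM per gene, computed by the authors, for 32 libraries. STAR, Cuffdiff and mm10 are named in the submitters' processing notes, with no version or role. Every column matched a sample label. Positions come from GENCODE M21 (GRCm38), which matched 99.4% of rows. MicroRNA sequences are from the RefSeq table for GRCm38.p6.

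From these values log2(FPKM + 1) was fitted in R 4.3.3 with limma 3.58.1 (16 group means, all 32 libraries, 16 residual degrees of freedom, trend), over 16276 genes with at least 1 FPKM in at least 2 libraries. A gene was called at a two-sided Benjamini-Hochberg adjusted p under 0.05. Errors after a log2 difference are standard errors. The scale understates changes of low genes. The rule named the 10 genes, every tested cluster partner, and in the wider list the 4 largest rises and 4 largest falls among called genes with non-overlapping libraries (KO against WT at days 0 and 6, Dex against no Dex at day 6). It also named imprint factors and IGF genes called with a change of at least 1, and the 3 nearest profiles of H19, Igf2 and Sfmbt2. The genes, lists and rules were chosen with earlier results of these data known.

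Depth was estimated from low FPKM values among 8862 single-transcript genes, with 902 to 1206 such values per library. Of these values 88.7% to 93.1% lay within 0.2 of a whole fragment. Values placed at random would give 40%. Depth and a subtracted length were searched for the best fit to whole fragments, so 40% is not the level expected after that search. Duplicates correlated across genes at r 0.9958 to 0.9976. On simulated data of 16276 genes for KO against WT at day 6, 87.2% of changes of 1 (log2) and 76.2% of changes of 0.5 were recovered, and 3.7% of calls were false. The simulation changed few genes and gave each gene the same mean and spread in all other groups. The real groups differ in spread and far more genes were called, so these shares need not hold for the real calls. Replicate numbers did not pair the libraries: the correlation of deviations ran from -0.09 to 0.13 over 120 pairs of groups. Alternatives tried: leaving out each library, the replicate block, a fit restricted to the compared groups, median-of-ratios rescaling, a mean of at least 5 FPKM, no filter, and a pseudocount of 0.1.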

Additional observations from a re-analysis of the deposited data

Results flagged for a closer look

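The difference between KO and WT changed from day 0 to day 6 in 32 of 47 other imprinted genes (16 towards higher, 16 towards lower), beside 56.9% of all genes tested, by the interaction term of limma at an adjusted p under 0.05. For Dex against no Dex it did so in 27 (11 and 16), beside 48.7%. Among the genes named above, the difference between KO and WT had opposite signs at the ends for Dlk1 (change of the log2 difference -7.22, adjusted p = 3.69e-17), Mkrn3 (1.05, 4.21e-08) and Rian (-1.39, 3.52e-17). In a fit of the compared groups alone the day 0 part was not called for any of them (0.47, -0.45 and 0.14, adjusted p = 0.0788, 0.0533 and 0.104). Igf2 moved from -1.45 to 0.92, a change of 2.37, and this difference was not tested because the gene was chosen with it in view.

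Between Dex and no Dex the sign went from higher at day 0 to lower at day 6 for Hells (-1.34, adjusted p = 8.15e-10), Rian (-0.58, 6.34e-11), Jade1 (-0.40, 3.41e-07), Peg12 (-0.53, 0.000964) and Mkrn3 (-0.52, 0.000329), and from lower to higher for Phlda2 (1.66, 1.21e-08) and Dlk1 (1.16, 1.33e-05). The day 6 part of Rian was only -0.07 (adjusted p up to 0.115), and its call was lost with any 1 of the 4 compared libraries left out. The day 6 calls of Mkrn3 and Peg12 and the day 0 calls of Mkrn3, Peg12, Dlk1 and Jade1 were also lost under some alternatives (adjusted p up to 0.101, 0.21, 0.0546, 0.159, 0.111 and 0.532). With no test made, the libraries also lay on opposite sides at day 0 and day 6 for Igf2 (-1.24), Igf2r (-0.68), Peg3 (-1.28), Cdkn1c (-0.62) and Mest (-0.62), though Cdkn1c differed by only -0.06 at day 6 and was not called there. Groups of 2 libraries allow no check of outlying samples.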

How the results depend on the processing

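Of 160 differences of the 10 genes, 134 were called, and none of these reversed under an alternative. These calls are a description, since the genes were chosen with these values known. Shares of all genes called stand beside the counts above. Of the differences not called, 7 reversed under an alternative, none past 0.1 in size. Among them, Snrpn in Dex against no Dex at day 0 was then called (0.02, and -0.065 after rescaling). Of the 134, 81 moved by more than the spread between replicates under rescaling and 73 with a pseudocount of 0.1. Calls of single genes were lost most often in a fit of the compared groups alone (75 of 397). Counts of called genes among the 47 other imprinted genes moved by more than 1.5 times in a fit of the compared groups alone for KO against WT at day 0 (12 against 26), no Dex against KO at day 0 (17 against 29) and day 4 (11 against 17), and, at day 2, Dex against no Dex (17 against 28). They did so with a mean of at least 5 FPKM for KO against WT at day 6 (22 against 34, of 32 genes left to test), and at day 6 for Dex against no Dex without replicate 2 of the group lacking Dex (11 against 19). Fewer samples or genes enter those fits. Rescaling reversed Cd81 in KO against WT at days 2 (-0.004) and 4 (-0.022), Nap1l4 at day 2 in Dex against no Dex (0.033), and Tssc4 from day 0 to day 6 without Dex (-0.09). It moved the all-gene median by over 0.1 only from day 0 to day 6 (WT 0.089 to -0.026, KO 0.094 to -0.009, no Dex 0.166 to -0.025, Dex 0.135 to -0.010). With 1 library left out, assumed to vary like the other groups, counts at days 0 to 6 were 22 to 26, 30 to 33, 24 to 26 and 31 to 34 for KO against WT, 23 to 24, 18 to 19, 14 to 16 and 20 to 23 for no Dex against KO, 22 to 26, 20 to 23, 23 to 25 and 11 to 15 for Dex against no Dex, and 35 to 42 from day 0 to day 6. With the replicate block, which pairs libraries that share only a number, 396 of 397 calls of single genes held. The exception, Zfp264 in KO against WT at day 0, had an adjusted p of 0.0555 (0.0491 without the block, and up to 0.174 over the alternatives). Depth limits genes near 0, as 3 fragments on a 2 kb transcript are 0.032 to 0.063 FPKM.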
